A study of Rattus norvegicus with 16 samples.

Results

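The voltage-gated sodium and calcium channel genes were taken as every probe target whose current rat symbol reads Scn, a number and a or b, or begins with Cacna, Cacnb, Cacng or Cacnn. RefSeq holds 40 such rat genes, and 36 of them (39 probes) were among the 13903 named genes of the array: 13 sodium channel and 23 calcium channel genes. The other 4, Scn7a, Cacna1d, Cacna1s and Cacna2d4, were not analysed here. Each gene was read from its brightest probe.

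The study measured hippocampal RNA of male Sprague-Dawley rats of 250 g on 16 one-colour Agilent arrays that carry probes for messenger RNAs and long non-coding RNAs. Controls met no stress, and the stressed rats lived through 8 weeks of chronic mild stress, a run of small unpredictable stressors used as a model of depression. The stressed rats were labelled depression-susceptible, anxiety-susceptible or insusceptible, with 4 arrays for each label and 4 for the controls. The labels do not give the rats' age, how the stressed rats were sorted, or whether an array held 1 animal or a pool, and they name no engineered allele.

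A voltage-gated sodium channel is a large pore-forming protein that opens within a fraction of a millisecond of depolarisation and carries the rising phase of the action potential, with smaller beta subunits that tune its gating and hold it to the membrane and to neighbouring cells. Voltage-gated calcium channels turn depolarisation into calcium entry: a pore subunit sets the type (L-type on cell bodies and dendrites, N-type, P/Q-type and R-type at terminals and dendrites, T-type near rest), while alpha2delta and beta subunits bring the pore to the surface. The gamma family divides into true channel subunits of muscle and the transmembrane regulators of AMPA-type glutamate receptors, which carry fast excitation in the hippocampus.

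The 16 arrays lay on 4 slides. Slides 1 and 2 each held 2 control and 2 depression-susceptible arrays and were scanned on the first day, while the anxiety-susceptible arrays filled slide 3 and the insusceptible arrays filled slide 4, scanned on the second. For these 2 groups, the group, the slide and the scan day therefore cannot be told apart. An array's 75th percentile of processed signal was 2997 to 3382 on the first day and 1077 to 1248 on the second. Arrays of 1 group on 1 slide differed by 0.748 to 0.917 times the spread that their repeated spots alone would give, over 1487 probes with 3 spots, while the means of the control arrays on the 2 slides differed by 3.67 times it. Such arrays were therefore averaged and counted once, which leaves 6 samples: 2 of controls, 2 of depression-susceptible rats and 1 each of the other two groups. The p-values measure the spread between these samples, which may be technical.

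The tissue label was checked against cell markers. Of the 7 neuron markers measured, 6 were well above background on all 16 arrays, as were 4 of 5 markers of hippocampal principal cells, 5 of 5 of astrocytes and 6 of 6 of oligodendrocytes. Markers of the choroid plexus, the secretory tissue of the ventricles, had a mean log2 level of 1.52 to 1.55 in the control arrays, against -2.61 to -2.44 in the depression-susceptible, -0.37 to -0.22 in the anxiety-susceptible and -3.22 to -3.11 in the insusceptible arrays. By the adjusted test given below, all 8 of them were lower than control in the depression-susceptible and insusceptible groups, and 7 of 8 in the anxiety-susceptible group. Of all probes, 3.15%, 14.3% and 16.6% were lower in these groups. Red blood cell genes were high in the depression-susceptible arrays, at -0.30 to -0.19 against -3.27 to -3.05 in the controls. The part of these differences in the channel results was not tested.

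Not every channel gene was detected. A probe was tested when it read well above background, by the scanner's own test, on at least 4 of the 16 arrays, and 27 of the 36 genes passed. Of these, 20 were above background on all 16 arrays and 4 more on every array where the spot was not marked as an outlier. The 9 genes that did not pass were Cacna2d2 and Cacng1, on 0 arrays, Cacna1f, Cacng4, Scn4a, Scn9a and Scn10a, on 1 array each, Cacna1a, on 2, and Cacna1e, on 3. Several of these are known from outside the brain: Scn4a is the sodium channel of skeletal muscle, Scn9a and Scn10a belong to pain-sensing neurons, Cacna1f to the retina and Cacng1 to skeletal muscle. Cacna1a (P/Q-type) and Cacna1e (R-type) are pores of hippocampal neurons, so for them the reading bounds only what these probes could detect. A probe that passed only through the groups where it was high had to differ between groups, and 3 tested genes were uneven in their detection. Scn11a was above background on 0 control, 4 depression-susceptible, 3 anxiety-susceptible (the fourth was marked as an outlier) and 0 insusceptible arrays. Cacng6 was above it on 4, 3, 0 and 0 arrays, and Cacng5 on 4, 4, 3 and 2, in the same order of groups.

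**Figure D1:**
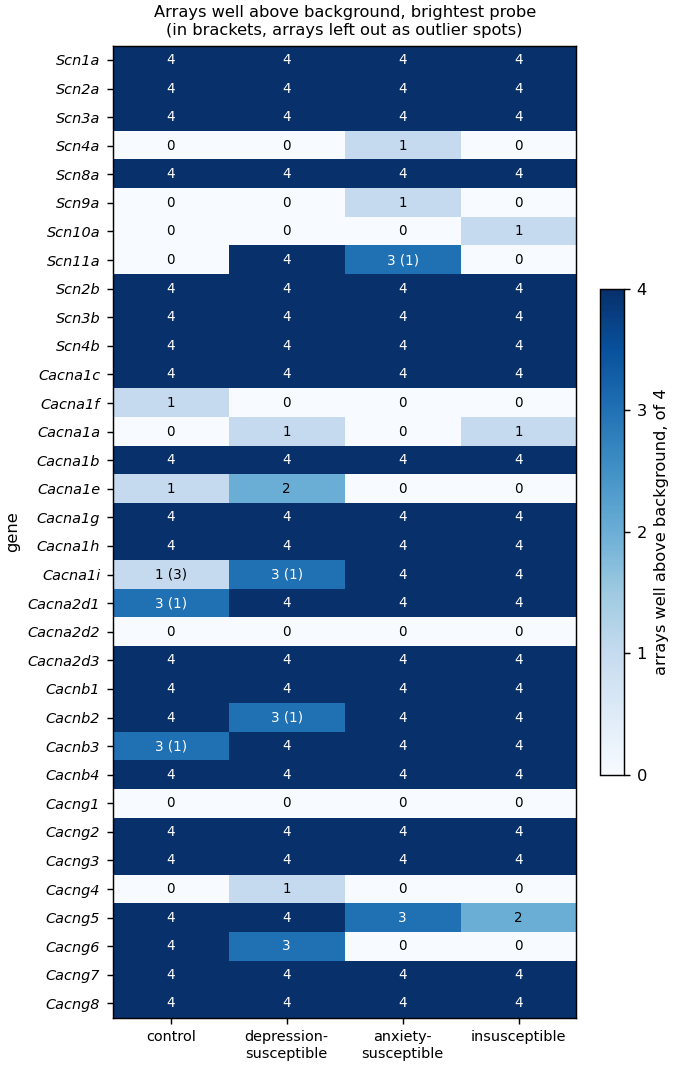
The heat map gives, for each of 34 genes (rows, ordered by kind of subunit) and each group (columns), the number of its 4 arrays on which the brightest probe was well above background, with arrays left out as outlier spots in brackets. Most rows read 4 in every group, 9 genes are nearly empty, and Scn11a, Cacng5 and Cacng6 change between groups.

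Across the family, few genes passed the adjusted test against control, and the share was no larger than among all probes. Levels below are log2 processed signal minus the array's 75th percentile, so 0 is the brightness of the 75th percentile and 1 unit is a doubling; differences are on the same log2 scale. With 6 samples, limma and Benjamini-Hochberg adjustment over all probes at 0.05, the depression-susceptible group had 1 of 27 genes higher (3.7%, against 6.77% of 17850 probes higher) and 0 lower (against 3.15%). The anxiety-susceptible group had 3 higher (11.1%, against 13.5% of 17863 probes) and 4 lower (14.8%, against 16.6%). The insusceptible group had 2 higher (7.41%, against 16%) and 3 lower (11.1%, against 14.3%). At an unadjusted p under 0.05, 4, 12 and 14 of the 27 differed from control in the depression-susceptible, anxiety-susceptible and insusceptible groups, beside 30.5%, 46.7% and 47% of all probes. Scn11a, which passed the detection filter only through the groups where it was high, is 1 of the genes counted higher in each group, and nothing is read from its calls. The median difference over the 27 genes was -0.07, -0.03 and -0.01 in these 3 comparisons, beside -0.04, -0.05 and 0.01 over all probes. An F test over all 4 group means called 5 genes, among them Scn8a, Scn11a, Cacnb4 and Cacng8, where it called 23.5% of all probes. These 3 comparisons share the control samples, so agreement between them is no independent repeat. Without the control arrays of slide 1, or without those of slide 2, no gene of the family other than Scn11a was called in any comparison with control, beside 2.78% to 5.85% of all probes. Without the depression-susceptible arrays of either slide, 2 genes were called higher and 0 lower in the anxiety-susceptible and in the insusceptible group, beside 12.2% and 13.3% of all probes called.

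Between the anxiety-susceptible and insusceptible groups, 0 of the 27 genes were called with limma on the 6 samples, beside 0.0783% of 17885 probes; 4 of the 27 had an unadjusted p under 0.05, as did 11.1% of all probes. Each of these groups has 1 sample, so their spread was taken from the other groups. If all 16 arrays counted as separate samples, 10 of the 27 would be called (37.1% of probes), and against control 11, 17 and 21 would be called in the depression-susceptible, the anxiety-susceptible and the insusceptible group (50.8%, 71.4% and 73.1% of probes). With the 16 arrays and the slide as a random block, a fit that also called 11.1% of probes, 4 of the 27 were called, among them Scn3a, higher in the anxiety-susceptible group by 0.28 (limma adjusted p = 0.0455), and Cacng2 and Cacng3, lower there (-0.63, adjusted p = 0.0145, and -0.45, adjusted p = 0.0101). The count thus differed between the 3 fits, and the labels do not say whether arrays of 1 slide are separate animals.

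Among the sodium channel pores, Scn8a fell, and the other pores of central neurons were not called under the main scaling. Scn8a encodes the channel concentrated at the axon initial segment and the nodes of Ranvier, where spikes begin and are renewed. Its level was -2.28, -2.33, -2.25 and -2.19 on the control arrays and -2.35, -2.52, -2.39 and -2.43 on the depression-susceptible arrays. It was -3.04, -3.01, -3.05 and -2.92 on the anxiety-susceptible arrays and -2.98, -2.98, -3.02 and -3.03 on the insusceptible arrays. The samples of the last 2 groups lay together, below every control and every depression-susceptible sample. Cacnb3, which was not called under the main scaling, had its samples apart in the same way. The share of all probes so placed was not counted. Against control the difference was -0.75 ± 0.09 (SE; 1.68-fold lower; limma adjusted p = 0.0174) in the anxiety-susceptible group and -0.74 ± 0.09 (1.67-fold lower; adjusted p = 0.0177) in the insusceptible group. The depression-susceptible group differed by -0.16 ± 0.08 (adjusted p = 0.253), with -0.11 on slide 1 and -0.21 on slide 2. Each group of the second scan day is 1 sample, so these errors and p-values rest on the spread of the control and depression-susceptible samples alone. Those samples share their slides, a pairing that the main fit leaves out. Both calls ended, with the differences between -0.70 and -0.79, when the arrays of 1 control or 1 depression-susceptible slide were left out (adjusted p of 0.0511 to 0.0684). Quantile normalization, which gives all arrays 1 distribution, put the differences at -0.95 and -0.98, and normexp background correction at -0.47 and -0.48, all with an adjusted p under 0.05.

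The promoter of Scn8a is shown because this gene fell in both groups, with those of Cacng3 and Cacng8, which are described among the gamma genes; RefSeq's table (build GRCr8) had no entry for Cacnb4, and 24 of the 36 genes had one. Each run is the 250 bases before the transcript's start, 5′ to 3′ on the gene's strand, with capitals marking any of 3 motifs searched on both strands: AGAACA (1 arm of the glucocorticoid receptor's site, held by 17.5% of 33469 promoters), TGACGTCA (the cyclic AMP response element, 1.59%) and TTCAGCACC (the left arm of the site of REST, a repressor of neuronal genes, 0.305%). No motif overlaps another in these runs.
Scn8a (chr7:133860977-133861226, plus strand): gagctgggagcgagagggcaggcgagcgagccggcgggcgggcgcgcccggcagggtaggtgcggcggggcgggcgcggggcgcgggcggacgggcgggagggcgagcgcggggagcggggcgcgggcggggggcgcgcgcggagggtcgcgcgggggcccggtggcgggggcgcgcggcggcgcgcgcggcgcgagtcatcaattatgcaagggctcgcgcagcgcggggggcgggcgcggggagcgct
Cacng3 (chr1:186632312-186632561, plus strand): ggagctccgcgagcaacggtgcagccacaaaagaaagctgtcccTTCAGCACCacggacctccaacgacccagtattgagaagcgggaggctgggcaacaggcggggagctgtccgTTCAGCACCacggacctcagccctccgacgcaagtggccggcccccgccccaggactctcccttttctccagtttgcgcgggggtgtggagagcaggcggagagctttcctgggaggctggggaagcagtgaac
Cacng8 (chr1:74691004-74691253, minus strand): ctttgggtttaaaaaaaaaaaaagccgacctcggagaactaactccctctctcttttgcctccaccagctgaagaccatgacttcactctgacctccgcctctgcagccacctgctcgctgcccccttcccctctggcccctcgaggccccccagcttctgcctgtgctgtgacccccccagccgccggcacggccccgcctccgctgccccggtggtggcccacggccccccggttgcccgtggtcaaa
The window of Scn8a is 86% G and C, against a median of 51.2% over all promoters, and holds 53 CG pairs but none of the 3 motifs. That of Cacng3 holds TTCAGCACC 2 times, at -206 to -198 and -134 to -126 from the start. Those of Cacng3 and Cacng8 are both 64.8% G and C.

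The 3 other pores of central neurons were not called in any comparison with limma on 6 samples under the main scaling. Scn1a, prominent in fast-spiking interneurons, read 2.11 and 2.19 in the 2 control samples, 2.28 and 2.40 in the depression-susceptible samples, 2.51 in the anxiety-susceptible and 2.54 in the insusceptible sample. Its differences from control were 0.36 ± 0.11 (limma adjusted p = 0.0731) in the anxiety-susceptible and 0.39 ± 0.11 (adjusted p = 0.0628) in the insusceptible group. Quantile normalization placed both past the threshold, at 0.60 and 0.63, so this call turns on the scaling. Scn2a, the main pore of excitatory neurons in the forebrain, stayed between 3.76 and 4.0 over the 6 samples under the main scaling. Its differences from control were -0.07 ± 0.10, 0.03 ± 0.12 and 0.10 ± 0.12 in the depression-susceptible, anxiety-susceptible and insusceptible groups. After quantile normalization they were 0.24, 0.50 and 0.56, so a level equal to control also turns on the scaling. Scn3a, best known from the developing brain, lay between -0.77 and -0.50, with differences of 0.15 ± 0.08, 0.23 ± 0.10 and -0.05 ± 0.10 in that order.

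Scn11a, a pore known mainly from peripheral sensory neurons, was well above background on every usable depression-susceptible and anxiety-susceptible array. It was so on no control or insusceptible array. The control arrays read -8.11, -8.16, -7.70 and -8.01, none of them well above background. The depression-susceptible arrays read -6.42, -6.22, -6.53 and -6.42, and the 3 usable anxiety-susceptible arrays -5.32, -5.38 and -4.72. No array of these groups overlapped the controls. The insusceptible arrays read -7.64, -5.77, -6.53 and -6.36, none of them well above background, and overlapped the depression-susceptible arrays. The detection limit was taken per array as the dimmest probe well above background, or the gene's own reading if brighter. It averaged -5.97 on the insusceptible and -7.38 on the control arrays. The depression-susceptible mean of -6.40 lies under the insusceptible limit, so detection does not separate these 2 groups. Folds here are set against this limit on the control arrays, under the main scaling. This limit is lenient, since brighter probes could also fail the scanner's test, as Cacng4 did at -6.965 on the first control array. The folds are therefore not strict lower bounds. Scn11a stood 1.98-fold above the limit in the depression-susceptible group and 4.73-fold above it in the anxiety-susceptible group. No insusceptible or control array was well above background, so no fold is given between these groups. These values are a description without a p-value, since the probe entered the test only through the groups where it was high. Under normexp correction the differences from control were 0.26 in the depression-susceptible and 1.44 in the anxiety-susceptible group. Both are smaller than the folds above, which are 0.98 and 2.24 on the log2 scale. The gene was then no longer called in the depression-susceptible group.

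Other genes of peripheral sensory neurons did not share 1 pattern. Of 5 tested, Prph, a neuronal intermediate filament, was higher than control in the depression-susceptible, anxiety-susceptible and insusceptible groups, by 0.63 ± 0.10, 0.88 ± 0.12 and 0.84 ± 0.12. Calca, which encodes the peptide CGRP, was lower, with differences of -0.83 ± 0.12 in the anxiety-susceptible and -1.40 ± 0.12 in the insusceptible group. The mean level of that list was -2.0 to -1.93 in controls, -1.77 to -1.70 in depression-susceptible, -1.89 to -1.85 in anxiety-susceptible and -2.33 to -2.24 in insusceptible arrays. Mrgprd, a defining receptor of pain fibres, was above background on 0 of 16 arrays and Trpa1 on 2.

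The sodium channel beta subunits Scn2b, Scn3b and Scn4b were not called with 6 samples under the main scaling. Scn4b, which is linked to the pore by a disulfide bond and supports the resurgent current, read -3.85 and -3.25 in the 2 control samples, -3.54 and -3.15 in the depression-susceptible samples, -2.67 in the anxiety-susceptible and -2.30 in the insusceptible sample. Its differences from control, 0.89 ± 0.33 and 1.26 ± 0.33, did not pass under that scaling. Scn2b, the other disulfide-linked subunit, lay between -4.26 and -3.93, with differences of 0.01 and 0.26 in the anxiety-susceptible and insusceptible groups. Under normexp correction these became 0.42 and 0.58, and those of Scn4b 0.85 and 1.14, and both genes passed in both groups. The calls thus turn on the processing. Scn3b, which binds the pore without a covalent bond, lay between 5.50 and 6.29, and its control samples, at 6.29 and 5.83, spanned both stressed groups of the second scan day, at 5.99 and 6.05.

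**Figure D2:**
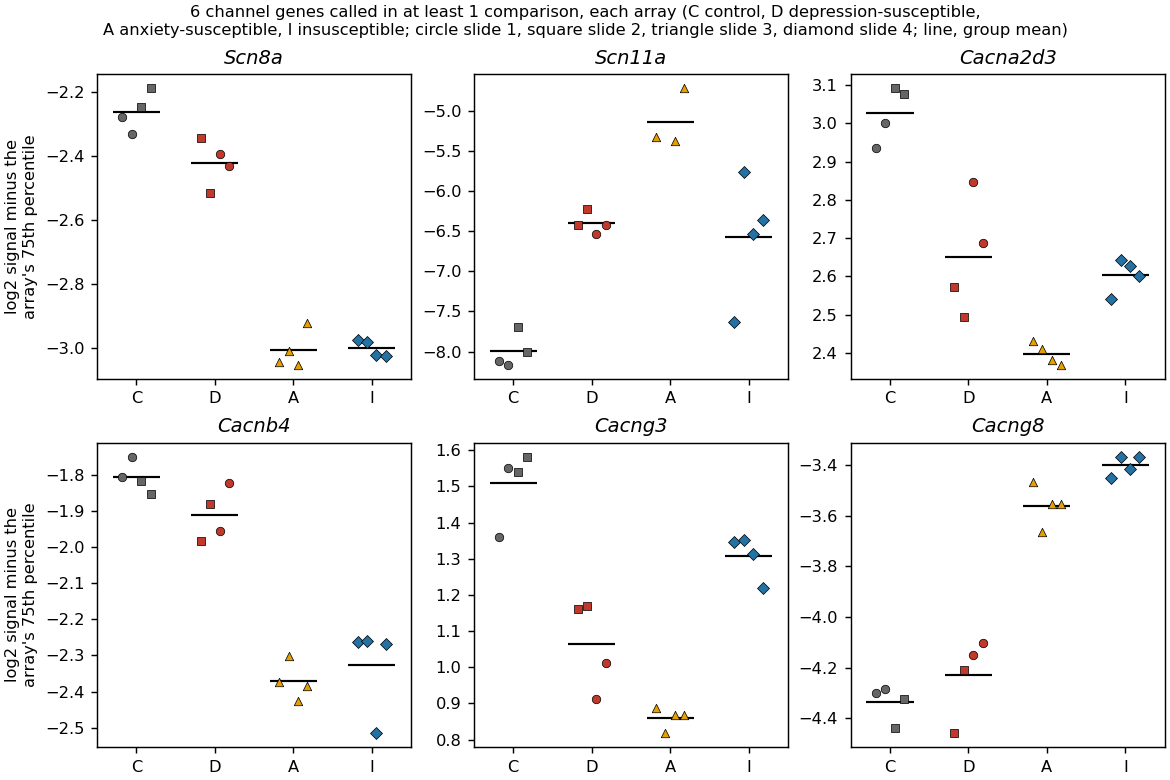
Each panel shows 1 of 6 genes called in at least 1 comparison, with each array's log2 signal minus its 75th percentile (y axis) in the 4 groups (x axis); marker shape gives the slide and the line is the mean of the group's samples. Scn8a and Cacnb4 sit lowest in the anxiety-susceptible and insusceptible arrays, and Cacng8 sits highest there.

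Of the 5 calcium channel pores tested, 0 were called in any comparison with limma on 6 samples, and Cacna1g alone had an unadjusted p under 0.05, in the anxiety-susceptible and insusceptible groups. Of all probes, 9.92%, 30% and 30.2% were called against control in the depression-susceptible, anxiety-susceptible and insusceptible groups, so few calls among so few pores say little about pores. Cacna1c, the main L-type pore of hippocampal neurons, read 1.34 and 1.23 in the control samples, 1.24 and 1.22 in the depression-susceptible samples, 1.24 in the anxiety-susceptible and 1.29 in the insusceptible sample. Its 3 differences from control were -0.06 ± 0.08, -0.05 ± 0.10 and 0.00 ± 0.10, which are smaller than their errors. Cacna1b, the N-type pore of presynaptic terminals, read 2.32 and 2.18, then 2.25 and 2.18, then 2.24 and 2.11 in the same order of samples. Its differences were -0.03 ± 0.09, 0.00 ± 0.11 and -0.14 ± 0.11. With so few samples these errors leave room for changes larger than the errors themselves, so equality with control is not shown. After quantile normalization the differences of Cacna1b were 0.07, 0.23 and 0.08.

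The T-type pores open near the resting potential and support burst firing. Cacna1g read 0.50 and 0.72 in the control samples, 0.67 and 0.83 in the depression-susceptible samples, 1.18 in the anxiety-susceptible and 1.07 in the insusceptible sample. Its differences from control were 0.57 ± 0.15 (limma adjusted p = 0.0561) and 0.46 ± 0.15 (adjusted p = 0.0855) in the last 2 groups. After quantile normalization both passed, at 0.64 (adjusted p = 0.029) and 0.52 (adjusted p = 0.0454). Cacna1h stayed between 0.93 and 1.08 over the 6 samples. For Cacna1i, the spot was marked as an outlier on 3 control arrays and 1 depression-susceptible array and left out there, so the control value rests on 1 array, at -0.37. The samples otherwise read -0.08 and -0.98 (depression-susceptible), -0.65 (anxiety-susceptible) and -1.06 (insusceptible), and no difference was called.

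Of the alpha2delta subunits, extracellular proteins that carry the pore to the surface and include the target of gabapentin, Cacna2d3 fell in the anxiety-susceptible group. It read 2.94, 3.0, 3.09 and 3.08 on the control arrays and 2.57, 2.50, 2.85 and 2.69 on the depression-susceptible arrays. The anxiety-susceptible arrays read 2.43, 2.41, 2.38 and 2.37 and the insusceptible arrays 2.54, 2.64, 2.63 and 2.60. All stressed samples lay below all control samples. The anxiety-susceptible difference was -0.63 ± 0.14 (1.55-fold lower; limma adjusted p = 0.0441), but quantile normalization put it at -0.30 (adjusted p = 0.175) and ended the call. The depression-susceptible and insusceptible groups differed by -0.38 ± 0.12 (adjusted p = 0.129) and -0.42 ± 0.14 (adjusted p = 0.0948).

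The 3 probes of Cacna2d1, made for 3 RefSeq transcripts of this gene, disagreed in direction. The brightest read 4.62 and 4.45 in the control samples (1 control array marked as an outlier), 4.25 and 4.15 in the depression-susceptible samples, 4.09 in the anxiety-susceptible and 4.12 in the insusceptible sample. Its differences from control, -0.33 ± 0.10, -0.44 ± 0.12 and -0.41 ± 0.12, were not called under the main scaling. After quantile normalization they were -0.02, 0.01 and 0.04. Under normexp correction they were -0.30, -0.54 and -0.60, of which the last 2 passed the threshold. The second probe read 1.84, 1.84, 1.95 and 1.92 on the control arrays and 2.50, 2.45, 2.49 and 2.51 on the insusceptible arrays. It rose there by 0.60 ± 0.10 (1.52-fold; limma adjusted p = 0.0254). The third probe read 1.69, 1.62, 1.84 and 1.84 on the control arrays and 2.47, 2.42, 2.35 and 2.39 on the insusceptible arrays. It rose by 0.66 ± 0.15 (1.58-fold; adjusted p = 0.0424). In the anxiety-susceptible group the dimmer 2 probes differed from control by 0.23 ± 0.10 and 0.23 ± 0.15, and in the depression-susceptible group by 0.14 ± 0.08 and 0.13 ± 0.12, none of them called. The 2 dimmer probes thus ran together and opposite to the brightest under the main scaling, and no test of this difference between probes was made.

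**Figure D3:**
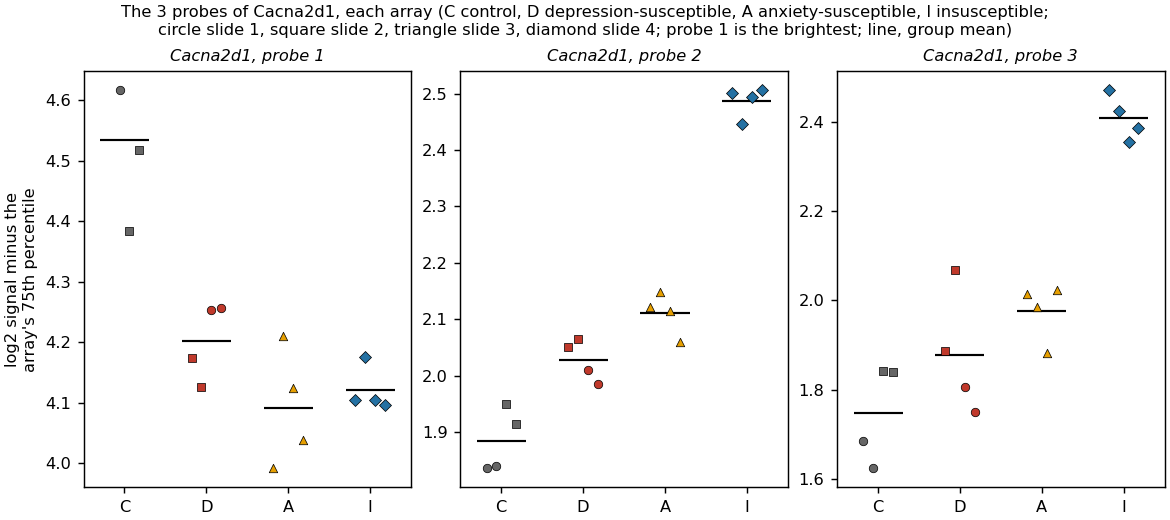
Each array's log2 signal minus its 75th percentile (y axis) in the 4 groups (x axis) for the 3 probes of Cacna2d1, numbered by brightness; marker shape gives the slide and the line is the mean of the group's samples. The dimmer 2 Cacna2d1 probes are highest in the insusceptible arrays where the first is low.

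The cytoplasmic beta subunits cover the pore's retention signal and shift its gating, and 1 of the 4, Cacnb4, fell. Cacnb4, whose loss causes the lethargic phenotype of mice, read -1.80, -1.75, -1.82 and -1.85 on the control arrays and -1.98, -1.88, -1.96 and -1.82 on the depression-susceptible arrays. The anxiety-susceptible arrays read -2.37, -2.30, -2.43 and -2.38 and the insusceptible arrays -2.26, -2.26, -2.52 and -2.27. As with Scn8a, the samples of these 2 groups lay below all others. The difference from control was -0.57 ± 0.09 (1.48-fold lower; limma adjusted p = 0.0247) in the anxiety-susceptible and -0.52 ± 0.09 (1.43-fold lower; adjusted p = 0.0285) in the insusceptible group. Normexp correction put these at -0.36 and -0.36, with adjusted p-values of 0.0556 and 0.0578, which ends both calls. In the depression-susceptible group the difference was -0.11 ± 0.08 (adjusted p = 0.41).

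The other beta subunits were not called with 6 samples under the main scaling. Cacnb3, abundant in brain, read 3.35 and 3.50 in the control samples, 3.40 and 3.26 in the depression-susceptible samples, 2.93 in the anxiety-susceptible and 2.92 in the insusceptible sample. Its differences of -0.50 ± 0.12 and -0.50 ± 0.12 shrank to -0.08 and -0.08 after quantile normalization. Under normexp correction they were -0.63 and -0.65 and passed the threshold. Cacnb1 read 1.95 and 1.90 in the control samples and 1.63 in the insusceptible sample, a difference of -0.29 ± 0.12. Cacnb2 read 0.25 and 0.38 in the control samples and 0.48 in the insusceptible sample, a difference of 0.17 ± 0.10.

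The median of bright probes moved upward in the same way. Such a shift brings negative differences nearer 0 and enlarges positive ones, as for Scn1a and Scn2a. The brightest 25% of all probes tested had a median difference from control of -0.31 in the anxiety-susceptible and -0.30 in the insusceptible group under the main scaling, against 0.01 and 0.03 after quantile normalization, and 9 of the 27 channel genes belong to that 25%. The 75th percentile taken instead over probes above background on all 16 arrays moved the median of all probes from -0.05 to 0.13 and from 0.01 to 0.19 in these groups. With it, 5 channel genes were called higher and 2 lower in the anxiety-susceptible group, where the main scaling called 3 and 4, and 18.8% of all probes were called higher and 8.76% lower. In the insusceptible group it called 5 higher and 1 lower, where the main scaling called 2 and 3, beside 22.6% and 8.07% of all probes. The split moved toward higher calls over all probes as it did over the channel genes.

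Among the gamma genes, Cacng8 rose and Cacng3 fell. Both encode transmembrane AMPA receptor regulatory proteins, which take AMPA receptors to the synapse and slow their closing, and Cacng8 is the member most typical of the hippocampus. Cacng8 read -4.30, -4.28, -4.44 and -4.32 on the control arrays and -4.46, -4.21, -4.15 and -4.10 on the depression-susceptible arrays. The anxiety-susceptible arrays read -3.47, -3.66, -3.55 and -3.56 and the insusceptible arrays -3.45, -3.37, -3.42 and -3.37. The samples of these 2 groups lay above those of the first 2. The rise was 0.78 ± 0.13 (1.71-fold; limma adjusted p = 0.0265) in the anxiety-susceptible and 0.93 ± 0.13 (1.91-fold; adjusted p = 0.0197) in the insusceptible group. Quantile normalization gave 0.45 (adjusted p = 0.105) and 0.57 (adjusted p = 0.0675), which ends both calls.

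Cacng3 read 1.36, 1.55, 1.54 and 1.58 on the control arrays and 1.16, 1.17, 0.91 and 1.01 on the depression-susceptible arrays. The anxiety-susceptible arrays read 0.89, 0.82, 0.87 and 0.87, and the insusceptible arrays 1.35, 1.35, 1.31 and 1.22. It was lowest in the anxiety-susceptible arrays, low in the depression-susceptible arrays, and nearer control in the insusceptible arrays. The insusceptible sample, at 1.308, still lay below the control samples, at 1.455 and 1.561. The fall in the anxiety-susceptible group was -0.65 ± 0.13 (1.57-fold; limma adjusted p = 0.0361). The depression-susceptible group differed by -0.44 ± 0.11 (adjusted p = 0.0874), with -0.49 on slide 1 and -0.40 on slide 2. The insusceptible group differed by -0.20 ± 0.13 (adjusted p = 0.298), and the anxiety-susceptible from the insusceptible group by -0.45 ± 0.15 (adjusted p = 0.43).

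The remaining gamma genes were not called with 6 samples under the main scaling. Under normexp correction, Cacng5, Cacng6 and Cacng7 passed as higher in both groups of the second scan day, and Cacng2 in the insusceptible group. Cacng2, which encodes stargazin, the first AMPA receptor regulator described, read -2.20 and -1.82 in the control samples, -1.71 and -1.22 in the depression-susceptible samples, -1.60 in the anxiety-susceptible and -0.97 in the insusceptible sample. All control samples were below all stressed samples, and the largest difference, 1.04 ± 0.28 in the insusceptible group, had a limma adjusted p of 0.0622. Cacng7, of the second class of AMPA receptor regulators, read -4.63 and -4.09 in the control samples and -3.61 in the insusceptible sample. Cacng5, of the same class, and Cacng6, a relative of the muscle subunit, lay near background, between -6.83 and -5.82 and between -6.89 and -5.98. Cacng6 was above background on all control arrays and on no anxiety-susceptible or insusceptible array. Yet its insusceptible sample, at -5.98, lay above its control samples, at -6.54 and -6.36. The anxiety-susceptible difference was -0.44 under the main scaling and 0.72 under normexp correction, so no fold is given.

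**Figure D4:**
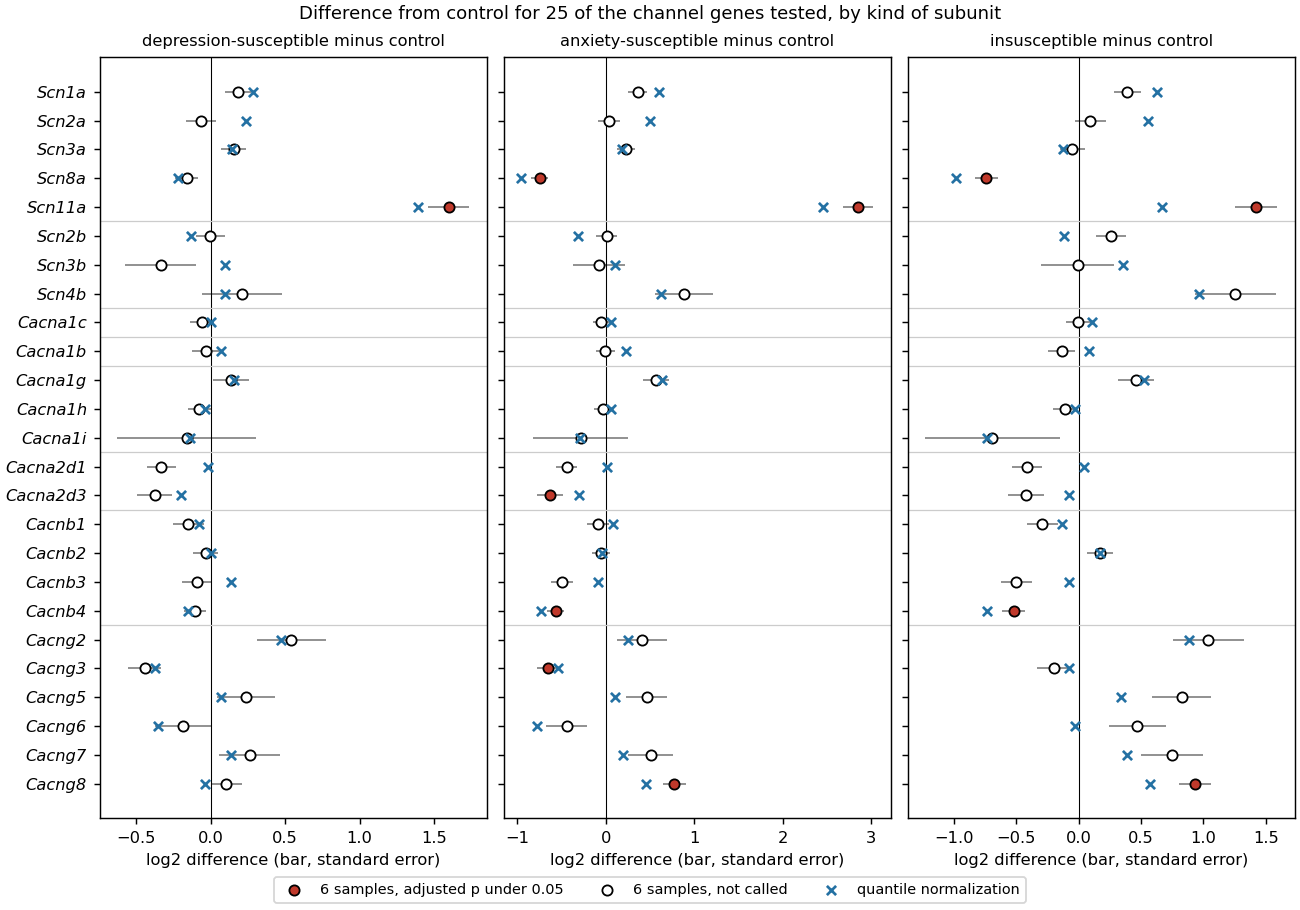
Log2 difference from control (x axis, bar 1 standard error) for 25 of the 27 genes tested (y axis, grouped by kind of subunit), 1 panel per stressed group; filled points passed an adjusted p of 0.05 with 6 samples, and crosses give the same difference after quantile normalization. The called points are spread over several subunit kinds. In the anxiety-susceptible and insusceptible panels the crosses of bright genes lie above the points in value, nearer 0 for Cacnb3 and Cacna2d1 and farther from 0 for Scn1a and Scn2a.

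For the depression-susceptible group, the shared slides allow the only comparison with control inside a slide. Blocked on the slide, limma called 8 of the 27 genes, 3 higher and 5 lower, beside 38.3% of all probes, in a fit with 1 residual degree of freedom before moderation. The higher ones were Scn11a, Cacng2 (0.54; limma adjusted p = 0.0149) and Cacng5 (0.24; adjusted p = 0.0394). Among the lower ones were Cacng3 (-0.44, limma adjusted p = 0.0181), Scn3b (-0.34, adjusted p = 0.0223) and Cacna2d1 by its brightest probe (-0.33, adjusted p = 0.0249). Cacna1i was also counted lower, by a difference of -0.61 from slide 2 alone, where 1 control array was kept. Its own fit had no residual degree of freedom left, so nothing is read from its call. After quantile normalization and without the block, the differences of Scn3b, Cacna2d1 and Cacng5 were 0.09, -0.02 and 0.07.

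The proteins that anchor and regulate sodium channels were read from a list of 18 genes, 12 of them tested. Of all probes, 13.5% were called higher and 16.6% lower in the anxiety-susceptible group. The shares were 16% and 14.3% in the insusceptible and 6.77% and 3.15% in the depression-susceptible group. In the anxiety-susceptible group 1 was higher and 3 lower than control, and in the insusceptible group 1 and 3; in the depression-susceptible group 1 was higher and 2 lower. Their median difference was -0.24, -0.27 and -0.13 in that order, the last turning to 0.06 after quantile normalization, beside the medians of all probes given above. Nrcam, an adhesion molecule of the axon initial segment and nodes, was lower in all 3, with differences of -1.37 ± 0.21, -1.07 ± 0.21 and -0.97 ± 0.17. Ank3, whose product ankyrin-G anchors sodium channels at the initial segment, was lower in the 2 groups of the second scan day. Its differences were -0.93 ± 0.09 in the anxiety-susceptible and -0.51 ± 0.09 in the insusceptible group. Fgf11, an intracellular factor that binds the channel's tail, was lower there, with differences of -0.68 ± 0.11 and -0.83 ± 0.11. Nedd4, a ubiquitin ligase of sodium channels, was higher by 0.65 ± 0.16 in the anxiety-susceptible group, and Tnr, a matrix protein of nodes, by 0.96 ± 0.11 in the depression-susceptible and 0.61 ± 0.13 in the insusceptible group. Cntn1, a binding partner of the beta subunits, was lower (-0.69 ± 0.09) in the depression-susceptible group. Each of these kept its sign after quantile normalization.

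Of 37 genes that act with calcium channels, 30 were tested. The shares of all probes called higher and lower were 13.5% and 16.6%, 16% and 14.3%, and 6.77% and 3.15% in the groups in the order that follows. In the anxiety-susceptible group 2 were higher and 9 lower, in the insusceptible group 1 and 8, and in the depression-susceptible group 0 and 2, with medians of -0.18, -0.17 and -0.13, the last turning to 0.04 after quantile normalization. Syt1, the calcium sensor of transmitter release, was lower in all 3, with differences of -1.26 ± 0.12, -1.21 ± 0.12 and -0.66 ± 0.10. Atp2b2, a calcium pump of the plasma membrane, was lower (-1.18 ± 0.16 and -1.25 ± 0.16) in the anxiety-susceptible and insusceptible groups. Calm3, a calmodulin gene, was lower there (-1.07 ± 0.17 and -1.22 ± 0.17), and Rims1, the active zone protein that ties calcium channels to vesicles, was lower (-1.09 ± 0.20) in the anxiety-susceptible group. Atp2b4, another such pump, was lower (-0.75 ± 0.10) in the depression-susceptible group. Rem1, a small GTPase that restrains calcium channels by binding the beta subunit, was higher. The differences were 0.83 ± 0.10 in the anxiety-susceptible and 0.62 ± 0.10 in the insusceptible group. Rem1 was named after its values were seen, and the other such GTPases of the list are not reported here.

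Some general neuron markers were lower than control in each stressed group. For all marker counts below, the shares of all probes are the comparison. In the depression-susceptible, anxiety-susceptible and insusceptible groups, 6.77%, 13.5% and 16% of probes were called higher. Called lower were 3.15%, 16.6% and 14.3%, and 30.5%, 46.7% and 47% had an unadjusted p under 0.05. Of 7 tested, 1 (Syt1) was lower in the depression-susceptible group, 4 were lower in the anxiety-susceptible group, and 1 was higher and 4 lower in the insusceptible group, with 4, 5 and 6 of the 7 at an unadjusted p under 0.05. Their mean level was 2.24 to 2.74 on the control arrays, 1.94 to 2.40 on the depression-susceptible, 1.62 to 1.69 on the anxiety-susceptible and 1.72 to 1.77 on the insusceptible arrays. Map2, a protein of neuronal dendrites, was lower (-0.73 ± 0.11 and -0.60 ± 0.11) in the anxiety-susceptible and insusceptible groups. The median difference of the 7 was -0.42, -0.73 and -0.60 in the 3 groups, and -0.14, -0.56 and -0.36 after quantile normalization. Of 7 interneuron markers, 2 were lower in the depression-susceptible, 2 in the anxiety-susceptible and 3 in the insusceptible group, and their median differences of -0.35, -0.31 and -0.57 became -0.07, 0.02 and -0.08 after quantile normalization. Of the genes for the 2 enzymes of GABA synthesis, Gad2 was lower in the last 2 groups (-1.40 ± 0.09 and -1.18 ± 0.09), while Gad1 was not called there and read 0.31 ± 0.11 and 0.24 ± 0.11 above control. Of 6 microglia markers, 3, 4 and 2 were lower in the depression-susceptible, anxiety-susceptible and insusceptible groups, and of 5 astrocyte markers 0 were called in each comparison (limma on 6 samples), and 1 had an unadjusted p under 0.05, in the depression-susceptible group. In the same order of groups, markers of hippocampal principal cells were lower for 1, 1 and 2 of 5 genes, those of oligodendrocytes for 0, 0 and 1 of 6, and those of endothelium higher for 0, 0 and 1 of 4. Red blood cell genes were higher for 4, 0 and 3 of 5 and lower for 1, 2 and 1, and muscle genes were higher for 1, 1 and 2 of 5 and lower for 0, 0 and 1. In such bulk tissue, fewer cells of a type and less RNA per cell cannot be told apart, and the part of these markers in the channel results was not tested.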

How the data were processed

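Each array's file held processed signal intensity (gProcessedSignal, background-subtracted) deposited by the authors from Agilent Feature Extraction 11.0.1.1, per the file headers. The authors' value table held log2 values; it followed quantile-normalized log2 signal (correlation at least 0.9996), though no label or header states its scaling. Here control and outlier spots were left out, spots of a probe averaged, log2 taken and each array's 75th percentile subtracted. Probes well above background on at least 4 of 16 arrays were tested (17885). Arrays of 1 group on 1 slide were averaged, and 4 group means were fitted with limma 3.58.1 in R 4.3.3 (2 residual degrees of freedom, eBayes), with two-sided p-values adjusted by Benjamini-Hochberg over all probes. Scripts were tested on simulated data. Normexp (offset 50) was run on median spot and background intensity, without outlier spots.

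Symbols came from RefSeq (GRCr8) through the array's RefSeq targets. The number of arrays limits the precision. Counts cover all members, of which 2 are not reported here by name; named genes are the rest; other genes come from the listed partners and markers, at most the 4 largest called differences per list and comparison. The members and lists were chosen with earlier results of these data known. Alternatives are in the closing section.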

Additional observations from a re-analysis of the deposited data

Results flagged for a closer look

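Over 94 sets of 4 arrays (a gene tested in a group with no outlier spot), 3 held an array that stood apart from the other 3 by more than 0.83 of the set's whole range, and chance alone flags about 1 set in 20. For Cacna2d1, the second insusceptible array read 4.176, above the other 3 at 4.096 to 4.105. For Cacnb2, the first control array read 0.154, below the others at 0.352 to 0.384. For Cacnb4, the third insusceptible array read -2.515, below the others at -2.267 to -2.261.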

How the results depend on the processing

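Counts of channel genes called are given in the order depression-susceptible, anxiety-susceptible and insusceptible against control, anxiety-susceptible against insusceptible, and the F test; the main counts were 1, 7, 5, 0 and 5, and 9.92%, 30%, 30.2%, 0.0783% and 23.5% of all probes were called; the shares of all probes follow each count in brackets. With 16 arrays as samples they were 11, 17, 21, 10 and 20 (50.8%, 71.4%, 73.1%, 37.1% and 86.7%), and with the slide as a random block (correlation 0.466) 13, 15, 15, 4 and 18 (58.3%, 56.8%, 57.4%, 11.1% and 74.1%). With the replicate block on the 16 arrays they were 10, 17, 20, 10 and 20 (47.9%, 69.5%, 71.1%, 32.3% and 84.2%). Same-numbered arrays of different groups correlated by -0.557 to 0.13 and passed 0.1 in 1 of 24 pairs, against 0.375 to 0.531 on shared slides, so the numbers do not pair the samples. The fixed slide block gave 8 in the depression-susceptible group (38.3%). Normexp gave 0, 14, 13, 0 and 12 (8.04%, 53.3%, 53.3%, 0.0336% and 51.8%), no filter 1, 3, 5, 0 and 1 (3.66%, 9.13%, 31.8%, 0% and 8.59%), and probes above background on all 16 arrays 0, 8, 6, 0 and 4 of 20 genes (12.4%, 36.4%, 35.2%, 0.117% and 31.7%). An intensity trend in limma, chosen after seeing the data, gave 1, 11, 9, 0 and 6 (12.6%, 33.4%, 33.6%, 0.246% and 30.2%). Quantile normalization and the authors' deposited log2 table each gave 1, 8, 5, 0 and 6 (9.59% to 10.1%, 28.5% to 30.5%, 27% to 28.7%, 0.271% to 0.358% and 25.1% to 27.3%), the next brightest probe 1, 7, 6, 0 and 4 (the main shares), and the other percentile 1, 7, 6, 0 and 4 (10.3%, 27.5%, 30.7%, 0.0951% and 23.5%). Leaving out 1 slide's arrays of a group, or 1 array of the 2 groups on slides of their own, gave 0 to 1, 1 to 8, 1 to 6, 0 to 0 and 0 to 5 (2.2% to 9.92%, 4.38% to 30.6%, 5.22% to 31%, 0% to 0.117% and 0% to 24.1%); a lone sample was then assumed to vary like the other groups. The cause of these changes was not tested, beyond the smaller number of samples or genes.

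None of the 13 called gene differences changed sign under any setting run. Beyond the lost calls given with the results, Cacng3 lost its call under the other percentile (-0.47, adjusted p = 0.0774), as did Cacna2d3 (-0.45, adjusted p = 0.0944) and, in the insusceptible group, Cacnb4 (-0.35, adjusted p = 0.0566). Scn11a lost its insusceptible call under quantile normalization (0.67, adjusted p = 0.0964) and in the deposited table, and its depression-susceptible call without either of that group's slides. Cacna2d3 (-0.29) and Cacng8 (0.49) also lost their anxiety-susceptible calls in the deposited table. Without a filter, Cacna2d3, Cacng3, Cacnb4 and Cacng8 lost theirs in the anxiety-susceptible group. Normexp on the median intensities replaced the planned mean signal. Dim probes are limited by background: a reading near it says little about the RNA.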
